A study of Schizosaccharomyces pombe with 3 samples.

Results

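The nuclear genes for the respiratory chain and the ATP synthase of the fission yeast Schizosaccharomyces pombe were examined for the chromatin association of Tup12. The 35 genes are grouped by complex: 3 subunits of succinate dehydrogenase, 10 genes for the cytochrome bc1 complex and cytochrome c, 8 subunits of cytochrome c oxidase, 12 subunits of the ATP synthase and the 2 chaperones of its F1 part. They were matched to array features by symbol, older symbol or systematic name, and 34 of them had a feature, among 4796 genes with a matched feature. The remaining gene, cox7, had none, and the upstream feature of atp4 carried the word Missing in its name and was left out.

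The series holds 3 arrays of 1 group, from separate experiments on cells carrying GFP-tagged Tup12, harvested from mid log phase cultures in the rich medium YES. On each array, DNA precipitated with an antibody against GFP (Cy5) was hybridised with the input DNA of the chromatin (Cy3), without a dye swap. The comparison is therefore immunoprecipitate against input, and arrays from cells without the tag were not analysed here. The tag sits on Tup12 itself, and the labels used here give no other genotype.

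Tup12 and its paralogue Tup11 are relatives of the budding yeast corepressor Tup1. They do not bind DNA themselves. DNA-binding proteins bring them to promoters together with Ssn6, and they are known for keeping genes of glucose repression, iron uptake and stress low. The respiratory chain passes electrons from succinate and NADH through ubiquinone, the bc1 complex and cytochrome c to cytochrome c oxidase. Fission yeast has no multi-subunit complex I. The proton gradient built on the way drives the ATP synthase, in which a rotor in the membrane turns a central stalk inside the F1 head. Cells in glucose ferment, and genes of respiration are in general less used there. A CCAAT-binding complex formed by Php2, Php3 and Php5 activates respiratory genes such as cyc1, and its partner Php4 turns it into a repressor when iron is scarce.

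The 3 windows below are the 250 bases before the annotated start of the transcript (RefSeq, assembly ASM294v3) for the member with the highest and the members with the 2 lowest upstream values. They are shown because CCAAT, the site of the Php complex, stood in a larger share of the members' windows than of all windows, and because both ends of the ranking hold it. Capitals mark CCAAT on either strand, so that ATTGG is CCAAT read from the other strand. The windows lie at III:1714372-1714621 on the plus strand for cyc1, at III:96377-96626 on the plus strand for qcr2 and at II:2057633-2057882 on the minus strand for atp14. The sources used here do not name the build behind the array, so the windows are taken by gene and not by probe position.
cyc1: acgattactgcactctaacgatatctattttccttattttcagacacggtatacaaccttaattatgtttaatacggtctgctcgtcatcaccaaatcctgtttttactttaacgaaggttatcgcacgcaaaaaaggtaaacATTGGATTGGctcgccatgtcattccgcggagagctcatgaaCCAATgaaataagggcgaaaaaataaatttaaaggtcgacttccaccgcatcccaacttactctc
qcr2: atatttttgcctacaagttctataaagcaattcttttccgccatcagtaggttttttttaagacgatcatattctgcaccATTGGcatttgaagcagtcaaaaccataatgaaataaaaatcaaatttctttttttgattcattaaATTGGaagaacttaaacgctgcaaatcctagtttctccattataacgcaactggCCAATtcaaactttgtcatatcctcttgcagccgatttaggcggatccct
atp14: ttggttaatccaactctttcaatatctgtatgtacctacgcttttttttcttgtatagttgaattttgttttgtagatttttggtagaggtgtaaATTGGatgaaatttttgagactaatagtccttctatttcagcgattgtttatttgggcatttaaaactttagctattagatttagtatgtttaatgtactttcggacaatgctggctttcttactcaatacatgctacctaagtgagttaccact

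In cyc1 the 3 matches began at -107, -102 and -65, counted from the gene start, 2 of them side by side on the minus strand. This window ran over the coding region of the gene before it, SPCC191.06, for 184 bases, and the pair of matches on the minus strand lies within that coding region. The lowest members were not without the motif: qcr2 held 3 matches, at -170, -104 and -50, and atp14 held 1, at -155. Of the 35 members' windows, 21 (60%) held CCAAT at least once, against 35.3% of the windows of 5112 protein-coding genes. At least 2 matches stood in 6 members (17.1%), against 7.53% of all windows. The motif of the stress factor Atf1, TGACGT, was in 1 member window, that of rip1 (2.86%), against 5.52%. The core of sites bound by the iron regulator Fep1, GATAA, was in 19 (54.3%), against 54.2%, and at least 2 matches stood in 1 member window (2.86%), against 18.8%. The carbon source element CCCCTC was in 0 of 35 member windows, against 1.70% of all windows. Both strands were searched for each of these motifs, none of which contains another. A match is a description of letters in a window and was not set against any binding of a factor.

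Tup12 signal was measured as the log2 ratio of immunoprecipitate over input at each feature, with the median of each array at 0. A value of 1 thus means a ratio 2 times that of the median spot. The array covers open reading frames (ORFs) and the intergenic regions named for the gene that follows, called upstream features here. A feature was tested when it had accepted spots in both channels on all 3 arrays. Its mean was then set against 0 with limma, with Benjamini-Hochberg adjustment over all 5460 tested features and a threshold of 0.05, and features past it are called enriched or depleted. A feature is said to be in the binding list when the median percentile rank of its spots, among the spots of tested features on their array, was at least 85.

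Upstream of the respiratory genes Tup12 signal was mostly above the array median. Of the 17 members tested there, 10 were enriched, where 43.7% of all 2109 upstream features were, and 1 was depleted, where 7.35% were. In the binding list stood 7 of the 17, where 28.1% of all upstream features did. Without replicate 1 the list held 3 of them (cox13, cyc1 and sdh1). The members' median was 0.80, 0.85 and 0.54 on replicates 1, 2 and 3, and the median over members of the 3-array means was 0.90. For the 2092 other upstream features the medians were 0.56, 0.62 and 0.50, with 0.54 for the means. The members' median lay above that of the other features on each of the 3 arrays, on replicate 3 by the least. The quartiles of the means overlapped, at -0.21 and 1.22 for members and -0.069 and 1.21 for the others. The difference was not tested. Without replicate 2 the members' median was 0.57, with 19 members tested. These shares come from features that passed the filter on signal and not from the whole set. All 7 members in the list belonged to the respiratory chain, which had 11 tested upstream features, and 0 of the 6 tested ATP synthase genes stood in it. That difference was not tested, and it moved with the settings. The listed cox13, rip1 and cox8 ranked at 85.1, 85.7 and 86.3, near the limit of 85, and atp2 and atp5 at 79.1. Without replicate 3 atp5 stood in the list and sdh1 did not. Without the filter on accepted spots atp16 was the only upstream member in it.

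The highest member was cyc1, for cytochrome c, the small carrier between the bc1 complex and the oxidase. Its upstream feature had log2 ratios of 2.29, 2.48 and 2.29 on replicates 1, 2 and 3. The arrays agree closely there, with the narrowest spread of the 17 members, and the mean was 2.36 ± 0.11 (SD, n = 3; limma adjusted p = 1.286e-07). It ranked 126th from the top among 2109 upstream features, so that 94.0% of them lay below it. Its immunoprecipitate signal exceeded that of 96.0% of upstream features and its input signal that of 70.6%, so the high ratio came with a bright precipitate and an ordinary input.

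Succinate dehydrogenase, the enzyme of the citric acid cycle that feeds electrons to ubiquinone, had both of its tested upstream features enriched and in the list. For sdh2, the iron-sulphur subunit, the values were 1.69, 1.66 and 0.84 (1.39 ± 0.48, SD, n = 3; limma adjusted p = 2.344e-04). For sdh1, the flavoprotein subunit, they were 1.13, 0.79 and 1.84 (1.25 ± 0.53, SD, n = 3; limma adjusted p = 7.518e-04). Replicate 3 was the low array for sdh2 and the high one for sdh1, so the order of the pair turned between arrays. The upstream feature of sdh3, the membrane anchor, had accepted precipitate spots (3 of 6) and no accepted input spot, and has no ratio.

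In the bc1 complex, which hands electrons from ubiquinone to cytochrome c, members fell at both ends of the ranking. The upstream feature of rip1, the Rieske iron-sulphur protein, had 1.20, 0.98 and 1.71 (1.30 ± 0.37, SD, n = 3; limma adjusted p = 4.200e-04). That of qcr8, a small subunit, was also enriched at 1.19 ± 0.52 (SD, n = 3). The other 3 tested members of the complex had means below the array median. For qcr1, a core subunit, the values were 0.44, -0.20 and -0.88 (-0.21 ± 0.66, SD, n = 3; limma adjusted p = 0.57). For cyt1, cytochrome c1, they were -0.33, -0.83 and 0.054 (-0.37 ± 0.44, SD, n = 3; limma adjusted p = 0.28). For the other core subunit, qcr2, they were -0.34, -0.27 and -1.01 (-0.54 ± 0.41, SD, n = 3; limma adjusted p = 0.11). None of these 3 passed the threshold, and qcr2 alone of them was below 0 on all 3 arrays. Of the small subunits, qcr7 and qcr10 had values on 2 arrays, between 0.22 and 0.88, and qcr6 and qcr9 on none. A second feature, from the long intergenic region before qcr10, had 0.096, 1.20 and 0.47 and was not called (0.59 ± 0.56, SD, n = 3; limma adjusted p = 0.092).

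Cytochrome c oxidase takes its catalytic core from mitochondrial DNA, and the nuclear genes encode the surrounding subunits. Upstream of cox8 the values were 1.39, 1.06 and 1.20 (1.22 ± 0.16, SD, n = 3; limma adjusted p = 6.662e-04), close together on all arrays. This feature was bright in both channels, above 96.4% of upstream features in the precipitate and 96.4% in the input. The upstream feature of cox13 was enriched at 1.19 ± 0.52 (SD, n = 3). That of cox12 had -0.24, 0.31 and -1.02 (-0.32 ± 0.66, SD, n = 3; limma adjusted p = 0.38), so its sign differed between arrays and it was not called. Upstream of cox4, cox5 and cox6 replicate 2 gave the one value each, -0.18, 1.54 and 0.67, and cox9 had none.

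Among ATP synthase genes no upstream mean reached those of the chain members in the binding list. Their median was 0.61, above the 0.49 of the bc1 complex and cytochrome c. It was below the 1.19 of the oxidase and the 1.32 of succinate dehydrogenase. Enriched were atp5, the OSCP part of the peripheral stalk, at 0.96 ± 0.61, atp2, the catalytic beta subunit, at 0.90 ± 0.29, and atp15, the epsilon subunit, at 0.72 ± 0.69 (SD, n = 3 each). The last of these rests on replicates 1 and 2, since replicate 3 read -0.025. The alpha subunit gene atp1 (0.32 ± 0.46) and atp17 (0.51 ± 0.12) did not pass (SD, n = 3 each; limma adjusted p = 0.36 and 0.12). The lowest upstream member was atp14, for a small stalk subunit, with -0.45, -0.90 and -0.93. All 3 arrays were below 0 and it was depleted (-0.76 ± 0.27, SD, n = 3; limma adjusted p = 0.025), with a precipitate signal above only 5.26% of upstream features and an input above 64.8%. Without replicate 1, and without replicate 3, it was not called. The members atp3, atp18, atp7, atp20 and atp11 had values on 1 or 2 arrays, from 0.21 to 1.21, and atp16 and atp12 had none.

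**Figure D1:**
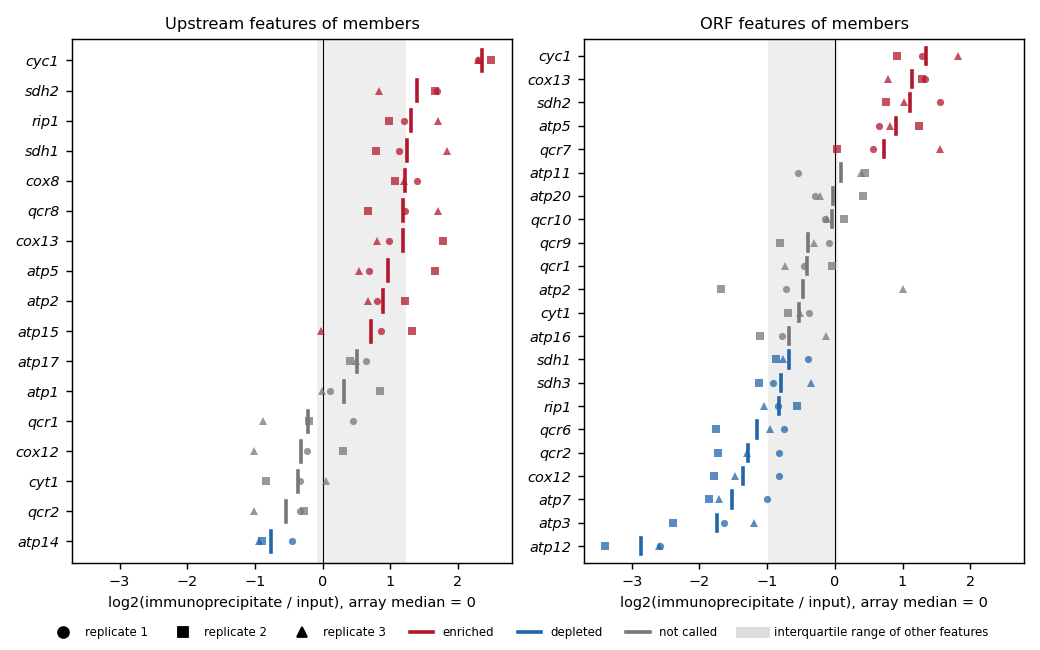
Log2 ratio of immunoprecipitate over input (horizontal axis, array median at 0) for each tested member, upstream features left and ORF features right. Symbols are the 3 replicates, short vertical bars the means, colours the limma call, and the grey band spans the interquartile range of the other features of the class. Upstream, cyc1 lies alone above 2 and atp14 is the only depleted member; among ORFs atp12 lies lowest at -2.86.

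The filter on signal shaped which members could be tested. Upstream features of members without a value on every array had 74.0% of their precipitate spots accepted and 26.0% of their input spots, against 98.0% and 90.2% for tested ones. For ORFs the figures were 83.3% and 34.7%, against 99.2% and 97.0%. Missing values of members thus lay mainly in the input channel. Of the members with an upstream feature 51.5% were tested, and 43.9% of the other upstream features.

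Within the coding regions the signal of most members was low, as over the array. Of the 22 ORFs tested, 5 were enriched, where 8.19% of all 3222 ORFs were, and 9 were depleted, where 38.8% were. A single one, cyc1, was in the binding list, where 4.1% of all ORFs were. The members' median was -0.50, -0.75 and -0.33 on replicates 1, 2 and 3, and -0.50 for the means, against -0.41, -0.63 and -0.41, and -0.49, for the 3200 other ORFs. The members' median was thus below that of the other ORFs on replicates 1 and 2 and above it on replicate 3. The SD of the members' medians over arrays was 0.21, and the difference from the other ORFs was not tested.

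The 5 enriched ORFs encode cytochrome c, an oxidase subunit, the succinate dehydrogenase iron-sulphur subunit, OSCP and a bc1 subunit. The ORF of cyc1 had 1.28, 0.92 and 1.82 (1.34 ± 0.46, SD, n = 3; limma adjusted p = 3.407e-04). That of cox13 had 1.34, 1.29 and 0.78 (1.13 ± 0.31, SD, n = 3; limma adjusted p = 0.0014), and that of sdh2 had 1.55, 0.76 and 1.02 (1.11 ± 0.40, SD, n = 3; limma adjusted p = 0.0019). These ORFs were above 0.7 on every array. The ORF of atp5 had 0.65, 1.25 and 0.82 (0.91 ± 0.31, SD, n = 3; limma adjusted p = 0.0086). The ORF of qcr7 had 0.57, 0.038 and 1.56 (0.72 ± 0.77, SD, n = 3; limma adjusted p = 0.048), with replicate 2 near 0. Without replicate 1, cyc1 was the only enriched ORF left.

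The lowest ORF was atp12, for the chaperone that in budding yeast binds the alpha subunit before F1 is assembled. It had -2.58, -3.40 and -2.60, far below 0 on all arrays (-2.86 ± 0.47, SD, n = 3; limma adjusted p = 7.661e-09), and ranked 3218th of 3222 ORFs. Its precipitate intensity was 92175, 51363 and 144930, against input intensities of 386052, 664321 and 742905. The precipitate thus lay in the middle of its class (above 42.4% of ORFs) and the input near the top (above 99.2%). The other chaperone, atp11, which binds the beta subunit in budding yeast, had an ORF mean of 0.098 ± 0.56 (SD, n = 3; limma adjusted p = 0.79).

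Next came the ORFs of the rotor and stalk. For atp3, the gamma subunit, the values were -1.64, -2.40 and -1.19 (-1.74 ± 0.61, SD, n = 3; limma adjusted p = 2.201e-05). For atp7, a stalk subunit, they were -0.99, -1.85 and -1.71 (-1.52 ± 0.46, SD, n = 3; limma adjusted p = 8.498e-05). Replicate 2 was the lowest array for both. For cox12 they were -0.82, -1.78 and -1.48 (-1.36 ± 0.49, SD, n = 3; limma adjusted p = 3.075e-04). For qcr2 they were -0.82, -1.72 and -1.30 (-1.28 ± 0.45, SD, n = 3; limma adjusted p = 5.453e-04). All 4 were below 0 on every array. The other depleted ORFs were qcr6 (the acidic hinge protein), rip1, sdh3 and sdh1, with means from -1.15 to -0.68. The ORF of qcr6 had the dimmest precipitate among members, above 0.062% of ORFs. The 8 ORFs that passed in neither direction ran from 0.098 for atp11 to -0.67 for atp16, with the widest spread at atp2, which had -0.72, -1.68 and 1.00. ORFs measured on 1 or 2 arrays (atp14, atp15, atp17, atp18, cox4, cox5, cox6, cox8 and qcr8) ranged from -1.41 to 1.48, and those of atp1, atp4 and cox9 had no ratio.

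The ratio moved with the input signal among members, as it did over the array. Across the 22 member ORFs the correlation of the mean ratio with the log2 input signal was -0.80, and across the 3200 other ORFs -0.57. Across the 17 upstream members it was -0.25, and across the 2092 others -0.48. With the log2 precipitate signal it was 0.58 in member ORFs and 0.62 in upstream members. These points share their arrays, and the ratio contains both signals, so the values are descriptions.

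**Figure D2:**
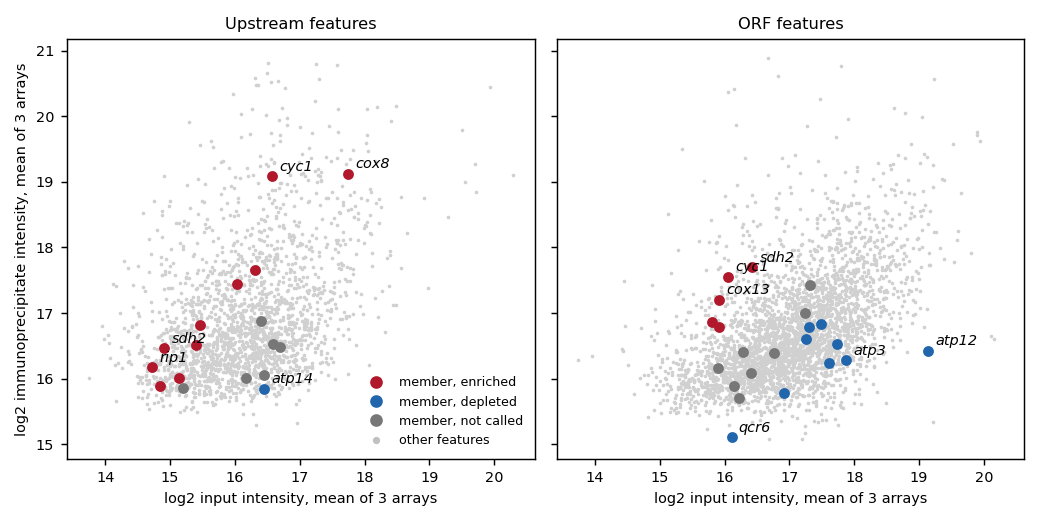
Mean log2 immunoprecipitate intensity (vertical axis) against mean log2 input intensity (horizontal axis) over 3 arrays, for upstream features left and ORF features right. Grey points are other tested features and coloured points the members by limma call; cyc1 and cox8 stand high in the precipitate, and atp12 stands far to the right at an ordinary precipitate level.

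When each feature was set against features of equal input signal (20 bins per array), 4 of the 10 enriched upstream members were still enriched: cyc1, cox8, cox13 and sdh1. The median of the upstream members was then 0.086. The bins held upstream and ORF features together. The median of the other upstream features at equal input is not given here, so 0.086 cannot be set against their 0.54 with the array median at 0. The value of cox8 was 2.05 under that setting, that of cyc1 2.53, and those of sdh2 and rip1 were 0.32 and 0.086 (limma adjusted p = 0.31 and 0.80). The sdh2 and rip1 upstream features have dim input, above 6.54% and 3.51% of their class. The upstream features of atp2 and atp15 turned below 0, at -0.26 and -0.15, and neither was called. Among ORFs, cyc1, cox13 and sdh2 were still enriched, and atp12 was still the lowest at -1.78. The ORFs of atp5 and qcr7 were no longer called, and that of qcr10 was newly enriched. Of the 9 depleted ORFs 5 were still depleted, while cox12, rip1, sdh1 and sdh3 were not called. The ORF of atp16 was newly depleted.

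**Figure D3:**
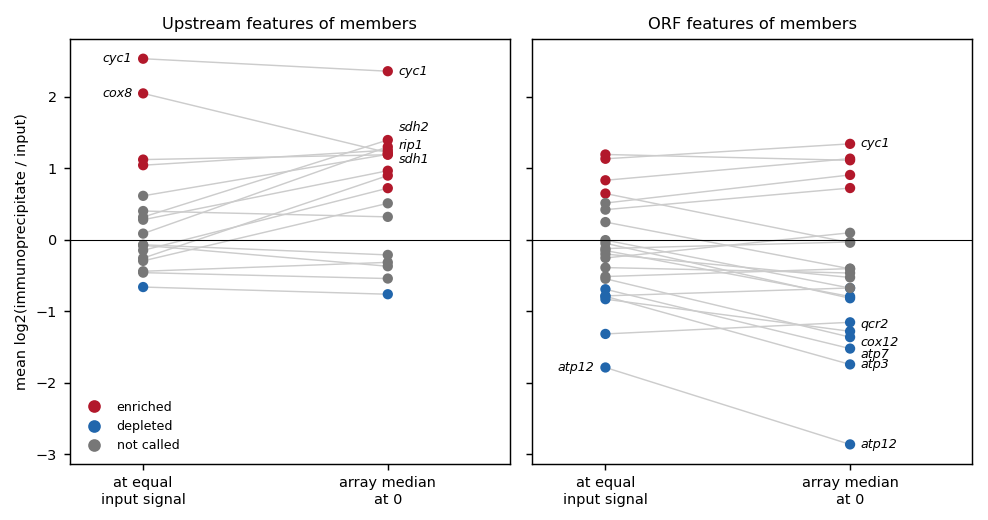
Mean log2 ratio of each tested member relative to features of equal input signal (left points) and with the array median at 0 (right points), upstream features in the left panel and ORFs in the right. Colours give the limma call in each setting. The upstream features of cyc1 and cox8 stay above 2 or rise to it, while those of sdh2 and rip1 move close to 0.

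Both features of a gene could be compared on the same arrays in 11 members. The median of the upstream minus ORF difference was 0.58, 1.45 and 0.28 on replicates 1, 2 and 3, and 0.74 for the means, against 0.89, 1.18 and 0.81, and 0.94, in 1290 other genes. An exact sign-flip test over 3 arrays gave p = 0.25 (two-sided) for the members, the smallest it can give. The upstream feature was the higher on all arrays in 5 of 11 members (45.5%) and in 61.9% of other genes.

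Of these 11 genes, 7 were enriched upstream, and they parted in their ORFs. In cyc1, sdh2, cox13 and atp5 the ORF was enriched as well, which is 57.1% of the 7, where 23.5% of 583 other genes enriched upstream had an enriched ORF. The differences within sdh2, cox13 and atp5 were small, at 0.28 ± 0.55, 0.054 ± 0.43 and 0.059 ± 0.35 (SD, n = 3 each). In rip1 and sdh1 the ORF was depleted, and the upstream feature stood above it by 2.12 ± 0.61 and 1.93 ± 0.59 (SD, n = 3 each), on all 3 arrays. Of the other genes enriched upstream 25.2% had a depleted ORF. No test of the members' shares against the others was made. In the remaining one, atp2, the ORF was not called, with arrays on both sides of 0. For qcr2 and cox12 the ORF was depleted and the upstream feature uncalled, and for qcr1 and cyt1 neither passed. Over these 11 genes the correlation of upstream and ORF means was 0.71, and over 1290 other genes 0.41. The features of a gene are adjacent on the chromosome and share sheared fragments, so these are descriptions.

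**Figure D4:**
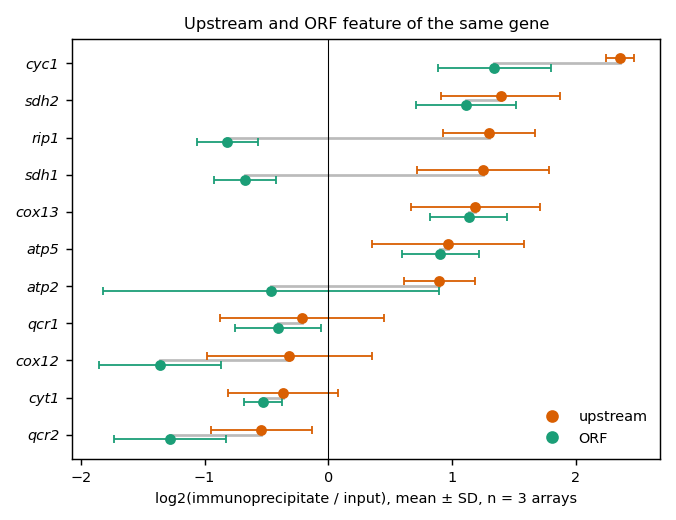
Mean log2 ratio of immunoprecipitate over input for the upstream feature (orange) and the ORF feature (green) of 11 members, ordered by the upstream value. Bars are the SD over 3 arrays. The pairs of cox13 and atp5 lie within their bars, and those of rip1 and sdh1 lie on opposite sides of 0.

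The neighbours of the strongest members were read for the same reason. The coding region of cyc1 follows that of SPCC191.06 on the same strand, with 179 bases between them. The ORF of SPCC191.06 was itself enriched and in the binding list, at 1.62 ± 0.20 (SD, n = 3; limma adjusted p = 2.932e-05), so the signal above 1 ran across 3 adjacent features there. The next gene after cyc1, lto1, had an enriched upstream feature at 1.52 ± 0.47 (SD, n = 3) and an uncalled ORF at -0.0097 ± 0.26 (SD, n = 3). The cox13 gene is transcribed away from mug33, with 600 bases between the coding regions. The upstream feature named for mug33 was enriched as well, at 1.15 ± 0.64 (SD, n = 3; limma adjusted p = 0.0020), and an array of this kind cannot assign that shared region to either gene. The sdh1 gene is likewise divergent from azr1, whose upstream feature did not pass (0.47 ± 0.45, SD, n = 3; limma adjusted p = 0.17). Members in a divergent arrangement were enriched upstream in 5 of 7 cases and those in tandem in 5 of 10, against 44.3% and 42.0% of other features.

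At atp12 the low signal was not held by 1 gene. The convergent gene SPAC9.11 had an ORF value of -2.43 ± 0.62 (SD, n = 3; limma adjusted p = 2.053e-07), and gpp74, on the other side beyond cwf16, had -1.82 ± 0.45 (SD, n = 3; limma adjusted p = 9.288e-06). Between them cwf16 stood at 0.053 ± 0.24 (SD, n = 3; limma adjusted p = 0.88). The low values were thus not continuous along this stretch.

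**Figure D5:**
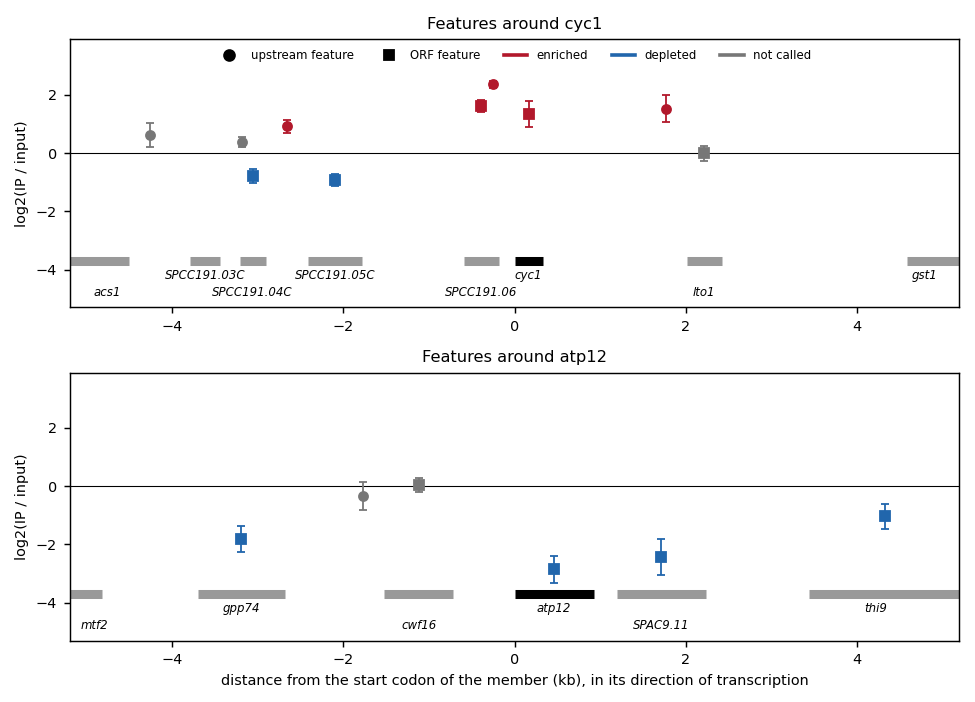
Mean log2 ratio with SD over 3 arrays for the features around cyc1 (top) and atp12 (bottom), by distance from the member's start codon. Grey and black bars are coding regions, squares (ORFs) sit at their middle, and circles (upstream features) are drawn at a fixed step before the start codon, since probe ends are not given. Around cyc1 the 3 adjacent features from SPCC191.06 to the cyc1 ORF are enriched; around atp12 the value of cwf16 lies near 0 between depleted ORFs.

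The upstream values of members with and without CCAAT in the window overlapped, and the highest member, cyc1, was among those with it. The 10 tested members whose window held it had a median upstream value of 0.81, with 6 enriched, and the 7 without it had 0.96, with 4 enriched. Over all upstream features the medians were 0.48 with the motif (730 features) and 0.55 without (1224 features). No test was run on these members.

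Genes of related functions gave a frame for these values. Of the citric acid cycle genes, 4 of 8 tested upstream features were enriched and 1 depleted (median 0.92), led by the aconitase gene aco1 (1.66 ± 0.19), and kgd1, for the E1 part of 2-oxoglutarate dehydrogenase, was the depleted one at -0.66 ± 0.17 (SD, n = 3 each). In their ORFs 1 of 12 was enriched, that of the fumarase gene fum1 at 1.80 ± 0.55, and 4 were depleted, with idh1, a subunit of isocitrate dehydrogenase, lowest at -1.27 ± 0.17 (SD, n = 3 each). Of the genes that deliver electrons to or build ubiquinone, 1 of 6 upstream features was enriched and 0 depleted (median 0.45), namely the external NADH dehydrogenase gene nde1 at 0.72 ± 0.43 (SD, n = 3). In their ORFs 0 of 7 were enriched and 2 depleted, coq6 and coq7.

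Of assembly factors of the complexes, 5 of 12 upstream features were enriched and 2 depleted (median 0.52). The highest were cbp4, for assembly of the bc1 complex, at 2.55 ± 0.25, above cyc1, and cbp6, for making cytochrome b in budding yeast, at 1.75 ± 0.28 (SD, n = 3 each). The lowest were sdh7 at -0.87 ± 0.20 and atp23 at -0.71 ± 0.28 (SD, n = 3 each). Their ORFs had 0 of 9 enriched and 4 depleted. Of a list of regulators, whose action on these genes was not tested, 1 of 5 upstream features was enriched and 0 depleted (median 0.54). That one was php2, for a subunit of the CCAAT-binding complex, at 0.90 ± 0.57 (SD, n = 3; limma adjusted p = 0.011), whose ORF was depleted at -1.19 ± 0.49 (SD, n = 3). Of 8 regulator ORFs, 0 were enriched and 3 depleted. Of mitochondrial ribosomal protein genes, 10 of 22 upstream features were enriched and 1 depleted (median 0.62), with mrpl35 highest at 2.36 ± 0.65, beside 2 of 32 ORFs enriched and 13 depleted (SD, n = 3). The lists' medians were not tested against that of the respiratory members.

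Over all 5460 tested features 22.1% were enriched, 26.1% depleted and 13.5% in the binding list. Ratios could be formed for 63.4% to 67.9% of the 19940 genomic spots of each array, and repeat spots of a feature correlated at 0.93 to 0.94. Pairs of arrays correlated at 0.73 to 0.83 over features with a value on both, tested or not. Spots of negative controls were accepted in 42.1% to 49.6% of cases in the precipitate channel and in 1.54% to 1.85% in the input channel. With 3 arrays their number limits the precision of every value above.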

How the data were processed

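Input and GFP precipitate DNA of 3 experiments were amplified, labelled and hybridised to spotted ORF and intergenic arrays; the scanner was ScanExpress and the quantification TIGR Spotfinder, per the labels' protocols. Their versions were not given in the sources used here, nor is the array's genome build. Deposited by the authors were the intensities of each spot in both channels, without normalization between them, and a series matrix of log10 values that the labels describe as normalized to the 50th percentile in GeneSpring.

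The log2 ratio of precipitate over input intensity was taken where both channels of a spot were accepted, set to an array median of 0 and averaged over repeat spots. Dyes follow the labels, Cy5 for the precipitate. Features measured on all 3 arrays were tested with limma 3.58.1 in R 4.3.3, mean against 0, Benjamini-Hochberg over 5460 features, threshold 0.05. Arrays count as replicates. The p-values are moderated, since limma draws the variance of each feature over these 3 arrays towards that of all tested features. The SD printed for a feature therefore does not alone set its p-value. Of 9966 genomic features 95.4% matched a gene of ASM294v3; 230 with Missing in their name were left out. Intergenic features were taken as upstream of the gene they are named for. Features of divergent neighbours correlated at 0.65 (n = 572, each pair entered in both orders). Those of tandem neighbours correlated at 0.26 (n = 384, each pair entered in 1 order).

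The fit was tested on simulated data for 5460 features, and a feature that was not called is not shown to be unchanged. The members and the related lists were chosen with earlier results of these data known. Values per array are given for the 5 highest and 5 lowest members of each class, those enriched in ORFs and those depleted upstream. Alternatives covered background correction, normalization, zero point, filters, GC content, input signal, single arrays and the deposited matrix. Motifs and figures used Python 3.11.15 with pandas 2.3.3 and matplotlib 3.10.9. One promoter window and one gene of a related list are not reported here.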

Additional observations from a re-analysis of the deposited data

How the results depend on the processing

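Over the 14 alternatives the upstream feature of cyc1 was called enriched in each, with means from 1.59 to 3.50. The ORFs of atp12, atp3, qcr2 and qcr6 were called depleted wherever they had a value. The 14 include 2 settings, given below, that could not change the members' values. Leaving out 1 array at a time left 17 to 19 tested upstream members and 22 to 24 ORFs. Upstream, 8 to 11 were enriched, 0 to 1 depleted and 3 to 7 listed, with a median of 0.57 to 0.94. Of the ORFs, 1 to 5 were enriched, 6 to 9 depleted and 1 to 2 listed, with a median of -0.58 to -0.39. A further background subtraction left 5 enriched, 0 depleted and 4 listed of 16 upstream members, and 2 enriched and 1 depleted of 16 ORFs. Shares of all features called under each setting are not set beside these counts, which describe the members alone. Loess left 6 enriched upstream, with a median of 0.56, and 3 listed ORFs. Normexp gave 2 listed ORFs and an ORF median of -0.78. Centring on ORF features moved the zero point: 0 upstream members were depleted, the medians were 1.32 upstream and -0.068 in ORFs, and the ORF medians of the bc1 genes, the oxidase, the ubiquinone list and the regulators turned to 0.021, 0.31, 0.17 and 0.086. Without the filter on flags, of 33 upstream members 1 was enriched (cyc1), 3 depleted and 1 listed (atp16), with a median of 0.43. Of 34 ORFs 2 were enriched (atp4 and cox5), 13 depleted and 3 listed (atp4, cox5 and cox8). The 5 ORFs enriched in the main setting were thus no longer called. The listed features and the 2 enriched ORFs had not been tested with the filter. The ubiquinone list's upstream median was then -0.23 and the ORF medians of the oxidase and assembly factors 0.70 and 0.29. At equal input signal 4 upstream members were enriched and 2 listed (median 0.086), 2 ORFs were listed (median -0.18), and signs turned for the upstream median of the ATP synthase (-0.20), atp2 (-0.26), atp15 (-0.15), the ORF medians of the citric acid cycle (0.050) and the regulators (0.18), and the qcr10 ORF (0.65). Correction for GC content gave 2 listed ORFs. Values on at least 2 arrays gave an upstream median of 0.72 over 21 members. A list limit at the 90th percentile left 2 upstream and 0 ORF members, and one at the 80th gave 4 ORFs. The qcr7 ORF turned to -0.88 after further background subtraction, and the oxidase ORF median ran from -0.33 to 0.28 when 1 array was left out. Leaving out input below the 95th percentile of accepted negative controls was chosen after seeing the data. Under that setting 0 upstream members were tested, so cyc1 had no call. Of the ORFs 1 member was left, atp12: 0 enriched, 1 depleted, 0 listed, median -1.82. The regulator ORF median was then 0.22. Another pair of planned settings, leaving out dim input and taking the median of repeat spots, could not change the members' values. The limit for dim input, the 95th percentile of negative controls, was 0 on each array and left out no spot. Repeat spots of members come in pairs, so their median is their mean. The causes were not tested, except that the filter on negative controls leaves fewer features.

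The authors' series matrix followed the precipitate channel less background (r = 0.93, 0.86 and 0.90) far more than the ratio (0.36, 0.25 and 0.35). Its column medians were 0, -0.010 and 0 in log10, and its centring is unknown, so it sets precipitate signals and not ratios side by side. Of 9 upstream members with values it gave 1 enriched, 0 depleted and 1 listed (median -0.78). Of 14 ORFs 2 were enriched and 0 depleted (median 0.41). For other upstream features and ORFs the medians were -0.30 and 0.24. Signs turned upstream for the ATP synthase (-0.78), assembly factors (-0.64), regulators (-0.22), mitochondrial ribosomal proteins (-0.63), atp2 (-0.94), sdh2 (-0.95) and qcr8 (-2.08), and in ORFs for succinate dehydrogenase (0.80), the bc1 genes (0.60), the citric acid cycle (0.72), regulators (1.57), qcr10 (1.97), sdh1 (0.39), rip1 (0.93), qcr7 (-1.49) and sdh3 (1.21).

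No paired analysis was possible because the arrays form 1 group. The limits are the 3 arrays, the input channel, whose missing spots decided which members were tested, and the lack of an untagged control here.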
